A study of Homo sapiens with 9 samples.

Results

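Genes of the epidermal growth factor (EGF) signaling system, 10 of the 58735 in the OVCAR4 count table, were followed across 9 RNA-seq libraries. They were picked by gene name and comprise 3 receptors (EGFR, ERBB2 and ERBB3), 6 ligands (TGFA, HBEGF, BTC, AREG, EREG and NRG1) and 1 feedback inhibitor (ERRFI1). The libraries came from OVCAR4, a human ovarian serous adenocarcinoma cell line, in which MPZL3, a transmembrane protein with a predicted adhesion role, was depleted by lentiviral short hairpin RNA (shRNA). The scr control group (n = 3) carried a scrambled shRNA in the pLKO.1 vector, and the shMPZL3 #1 (n = 3) and shMPZL3 #2 (n = 3) groups each carried a different hairpin against MPZL3. All 3 groups were transduced, then kept in puromycin for 3 days, and were grown in RPMI-1640 with serum, glutamine and added insulin, so the controls shared the virus, the drug and the insulin. The labels give the control genotype as WT, and the study describes the 3 libraries of each group as biological replicates. Each hairpin was 1 construct, so an effect of the hairpin itself and an effect of losing MPZL3 cannot be told apart within 1 hairpin.

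EGF family ligands are made as membrane-anchored precursors that metalloproteases such as ADAM17 release from the cell surface. Released ligand binds receptor tyrosine kinases of the ErbB family, which pair with one another and signal through the RAS-ERK and PI3K-AKT cascades. EGFR binds TGFA, AREG, EREG, HBEGF and BTC, ERBB3 binds neuregulins such as NRG1 and has little kinase activity of its own, ERBB2 has no known ligand and is the preferred partner of the others, and ERRFI1 (also called MIG6) binds active receptors and blocks their kinase. Ovarian carcinoma cells commonly make both the receptors and their ligands.

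In the whole table, library totals ran from 15040102 to 27835841 counts and mitochondrial genes took 7.16% to 8.65% of them. MPZL3 counts were 403 to 648 in the scr control group, and 130 to 144 (shMPZL3 #1) or 281 to 375 (shMPZL3 #2) after knockdown, and the remaining level was higher with shMPZL3 #2 than with shMPZL3 #1 by 1.28 on the log2 scale (SE 0.16, edgeR quasi-likelihood test, adjusted p = 5.72e-05). The defining epithelial genes EPCAM, KRT7, KRT8, KRT18, KRT19 and CDH1, and the Müllerian factor PAX8, had at least 3381 counts in every library. The ovarian carcinoma marker MUC16 had 4363 to 8629, whereas MSLN had only 46 to 100 and WT1 3 to 13. Of this list of 10 genes, 9 were tested and 0 were called in the grouped comparison by edgeR (3 higher and 1 lower at an unadjusted p under 0.05, and 2 higher by DESeq2), against 3 higher and 1 lower with shMPZL3 #1. The 1 lower at an unadjusted p in the grouped comparison was MUC16 (log2 -0.41, edgeR adjusted p = 0.116). Of 6 fibroblast markers, COL1A1 and LUM were called higher in the grouped knockdown (0 markers without any 1 of the controls, 3 with shMPZL3 #1 and 2 with shMPZL3 #2), the summed level of the list was 8.98 to 11.5 TPM (counts divided by exonic length and scaled to the same sum in each library) in the controls, 16.6 to 26.4 with shMPZL3 #1 and 18.2 to 22.9 with shMPZL3 #2, DCN was at 0 in all 9 libraries and COL3A1 and PDGFRB reached at most 12 and 6 counts. Of 5 leukocyte markers, CD14 was called higher (at most 34 counts; 0 markers without scr control replicate 1 or 3), with summed levels of 2.13 to 3.06, 2.66 to 3.55 and 3.20 to 5.18 TPM, and LYZ had at most 1 count. Of 4 endothelial markers, 0 were called in the grouped comparison by edgeR, by DESeq2 or at an unadjusted p under 0.05, 1 was called higher with shMPZL3 #2, and their summed levels were 3.31 to 4.34, 3.01 to 3.57 and 5.78 to 6.95 TPM. Over all genes tested, 9.36% were called higher and 6.4% lower in the grouped comparison. With shMPZL3 #1 these shares were 16.8% and 15.3%, and with shMPZL3 #2 they were 9.36% and 5.8%. The part of these marker genes in the results below was not tested.

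All 10 members are protein-coding and lie on 8 chromosomes, and 3 of the ligands sit together on chromosome 4. Starting from EREG, the gene start of AREG lies 80.0 kb on, and the 3 genes with BTC span 429.5 kb that hold no other protein-coding gene. In OVCAR4, these neighbours had very different levels, with 63 counts for EREG, 198 for AREG and 2456 for BTC summed over the 9 libraries. The sequences below show the 250 bases before the RefSeq start (GRCh38.p14) of the receptor that fell with both shRNAs and of the 4 ligands that passed the test with at least 1 shRNA. They are EGFR at chr7:55018767-55019016 on the plus strand, TGFA at chr2:70553827-70554076 on the minus strand, BTC at chr4:74794524-74794773 on the minus strand, HBEGF at chr5:140346604-140346853 on the minus strand and AREG at chr4:74444886-74445135 on the plus strand, each read 5′ to 3′, with motif matches in capitals.
EGFR: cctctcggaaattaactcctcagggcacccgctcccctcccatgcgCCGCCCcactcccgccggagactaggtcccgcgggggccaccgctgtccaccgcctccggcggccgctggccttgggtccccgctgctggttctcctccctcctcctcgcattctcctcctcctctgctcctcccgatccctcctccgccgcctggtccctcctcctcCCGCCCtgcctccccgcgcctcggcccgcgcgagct
TGFA: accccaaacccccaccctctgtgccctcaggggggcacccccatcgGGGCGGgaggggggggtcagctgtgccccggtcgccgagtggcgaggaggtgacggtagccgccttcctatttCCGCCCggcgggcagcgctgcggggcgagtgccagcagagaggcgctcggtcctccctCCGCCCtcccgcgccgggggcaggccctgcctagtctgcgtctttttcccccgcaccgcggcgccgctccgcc
BTC: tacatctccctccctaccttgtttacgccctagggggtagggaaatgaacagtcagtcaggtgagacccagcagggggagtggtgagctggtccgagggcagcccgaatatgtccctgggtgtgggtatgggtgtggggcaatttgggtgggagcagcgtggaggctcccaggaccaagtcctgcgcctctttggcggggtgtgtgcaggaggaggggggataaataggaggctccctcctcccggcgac
HBEGF: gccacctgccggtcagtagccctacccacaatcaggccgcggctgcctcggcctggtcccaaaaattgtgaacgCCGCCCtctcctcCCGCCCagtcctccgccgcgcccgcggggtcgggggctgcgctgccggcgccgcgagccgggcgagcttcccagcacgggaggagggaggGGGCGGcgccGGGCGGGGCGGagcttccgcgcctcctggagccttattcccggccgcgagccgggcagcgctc
AREG: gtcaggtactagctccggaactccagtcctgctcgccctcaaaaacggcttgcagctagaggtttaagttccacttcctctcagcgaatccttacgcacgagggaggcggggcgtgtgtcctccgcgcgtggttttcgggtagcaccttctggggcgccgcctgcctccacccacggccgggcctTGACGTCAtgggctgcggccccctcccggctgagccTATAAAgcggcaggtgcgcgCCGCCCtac

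The capitals mark GC boxes (GGGCGG), AP-1 sites (TGANTCA), cAMP response elements (TGACGTCA), TATA boxes (TATAAA) and CCAAT boxes (CCAAT), each searched on both strands. HBEGF held 5 GC boxes, 2 of them sharing a base, TGFA held 3, EGFR held 2, AREG held 1 and BTC held none. GC boxes occurred in 42.6% of the 35116 windows of that length in the RefSeq table. AREG alone among the 8 members with an entry there held a cAMP response element, 65 bases before its start, which 1.65% of all windows contain, and it also held a TATA box, found in 10.7%. EREG, not printed, held a TATA box and 2 CCAAT boxes (CCAAT in 32.0% of windows), ERBB2 held 1 CCAAT box and the only AP-1 match (6.57% of windows), and ERRFI1 held 1 GC box and 1 CCAAT box. The guanine-cytosine content was 73.6% for EGFR, 75.6% for TGFA, 76.4% for HBEGF, 65.2% for AREG and 62.0% for BTC, against a median of 58.0% over all windows. The RefSeq start used for TGFA lay 367 bases inside the gene as the deposited table gives it, and that of BTC lay 163 bases inside. ERBB3 and NRG1 had no entry. A match is a run of letters and does not show binding.

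Levels between genes were compared in TPM, which divides by exonic length. In the scr control cells ERRFI1 (50.9 ± 2.48 TPM, SD, n = 3) and EGFR (49.3 ± 0.978 TPM) stood highest and overlapped each other. ERBB2 (38.5 ± 1.18 TPM), HBEGF (24.9 ± 1.90 TPM), ERBB3 (19.9 ± 0.529 TPM) and TGFA (18.4 ± 3.12 TPM) followed, of which only ERBB3 and TGFA overlapped. BTC (9.23 ± 3.20 TPM), NRG1 (1.84 ± 0.219 TPM), AREG (1.03 ± 0.149 TPM) and EREG (0.0559 ± 0.0573 TPM) were the lower members and did not overlap their neighbours in the order. Among 28796 genes with a count in the controls, EGFR stood at the 89.1 percentile and TGFA at the 77.2 percentile, whereas EREG stood at the 6.04 percentile.

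The order of the means was different in the knockdown cells, which was not tested. With shMPZL3 #1, ERBB2 (46.3 ± 4.80 TPM) had the highest mean, and EGFR (29.1 ± 2.44 TPM) came after TGFA (36.5 ± 6.81 TPM), with which it overlapped. With shMPZL3 #2, TGFA (43.7 ± 6.88 TPM) came next to ERRFI1 (44.0 ± 1.65 TPM) and overlapped it, and EGFR (35.3 ± 3.12 TPM) came after ERBB2 and HBEGF, overlapping both. The stacked plot of TPM by library shows the sums of the 3 receptors and of the 6 ligands. The receptors summed to 107.8 ± 1.53 TPM in the controls, 98.7 ± 3.31 TPM with shMPZL3 #1 and 96.9 ± 4.70 TPM with shMPZL3 #2. The ligands summed to 55.4 ± 5.46 TPM, 85.5 ± 11.9 TPM and 99.7 ± 11.6 TPM in the same groups.

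**Figure D1:**
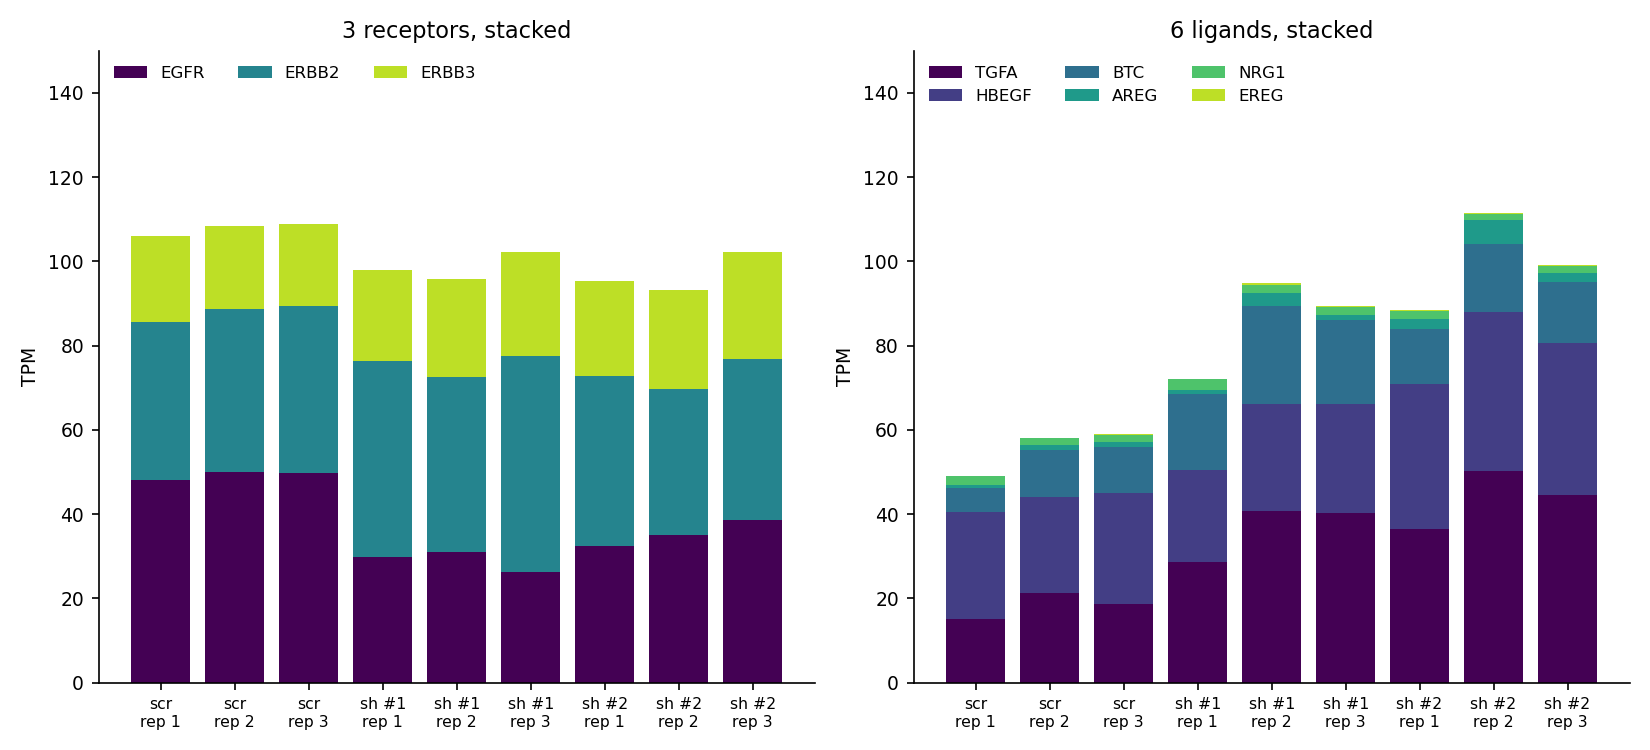
Level in TPM (linear axis from 0) of the 3 receptors (left) and the 6 ligands (right), stacked, in each of the 9 OVCAR4 libraries (scr control, shMPZL3 #1 and shMPZL3 #2, replicates 1 to 3). The ligand stacks run from 49.1 to 59.0 TPM in the controls and from 72.1 to 111.5 TPM with either shRNA. The receptor stacks run from 106.1 to 109.0 TPM in the controls and from 93.1 to 102.4 TPM with either shRNA.

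Within the receptor sum, EGFR made up 45.8% ± 0.365 in the controls, 29.6% ± 3.42 with shMPZL3 #1 and 36.4% ± 2.16 with shMPZL3 #2. ERBB2 took 35.7%, 46.9% and 39.1%, and ERBB3 took 18.5%, 23.6% and 24.5% in the same order. EGFR was the largest receptor share in all 3 controls and in none of the shMPZL3 #1 libraries, where ERBB2 led. With shMPZL3 #2 it was slightly above ERBB2 in replicate 2 (37.6% against 37.2%) and replicate 3 (37.8% against 37.5%) and below it in replicate 1 (33.9% against 42.5%). Within the ligand sum, HBEGF led in the controls with 45.3% ± 6.40, against 33.0% ± 3.21 for TGFA. TGFA led with both shRNAs, at 42.5% ± 2.60 and 43.7% ± 2.11, against 28.7% ± 1.80 and 36.5% ± 2.56 for HBEGF. BTC took 16.4%, 23.9% and 14.6%, and AREG, NRG1 and EREG each stayed under 6%.

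The main comparison asked which members differed between the 6 knockdown libraries and the 3 controls, grouping the shRNAs as the study did. TGFA, BTC and ERBB3 were higher, EGFR was lower, and the other 6 did not pass. All 10 members were in the 16928 genes tested. However, EREG passed the low-count filter through its knockdown libraries alone, and the controls of AREG would not have met it by themselves. The 3 members called higher stand beside 9.36% of all genes tested called higher, and the 1 called lower beside 6.4%. By position alone, 3 members had all 6 knockdown libraries above all 3 controls and 2 had all 6 below, beside 11.8% and 11% of all genes. The median log2 fold change was 0.30 over the 10 members and 0.02 over all genes. AREG (1.33) and EREG (2.11), which needed knockdown libraries to pass the filter, lie above the member median. Here and below, values per library are counts scaled by trimmed-mean (TMM) library sizes to the mean library, called normalized counts, and calls are adjusted p under 0.05 over all genes tested with edgeR's quasi-likelihood test.

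Taking each shRNA alone against the same controls, shMPZL3 #1 gave 4 members higher and 2 lower, beside 16.8% and 15.3% of all genes. With shMPZL3 #2, 5 members were higher and 1 lower, beside 9.36% and 5.8%. The direct comparison of the shRNAs called 1 member higher with shMPZL3 #2 and 0 lower, beside 7.56% and 7.56% of all genes. At an unadjusted p under 0.05, that comparison had ERBB2 and BTC lower, and DESeq2 called 0 lower. Comparisons with shMPZL3 #1 and with shMPZL3 #2 use the same 3 control libraries, so their directions are not independent. In bulk RNA, fewer cells making a transcript and less of it per cell cannot be told apart.

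**Figure D2:**
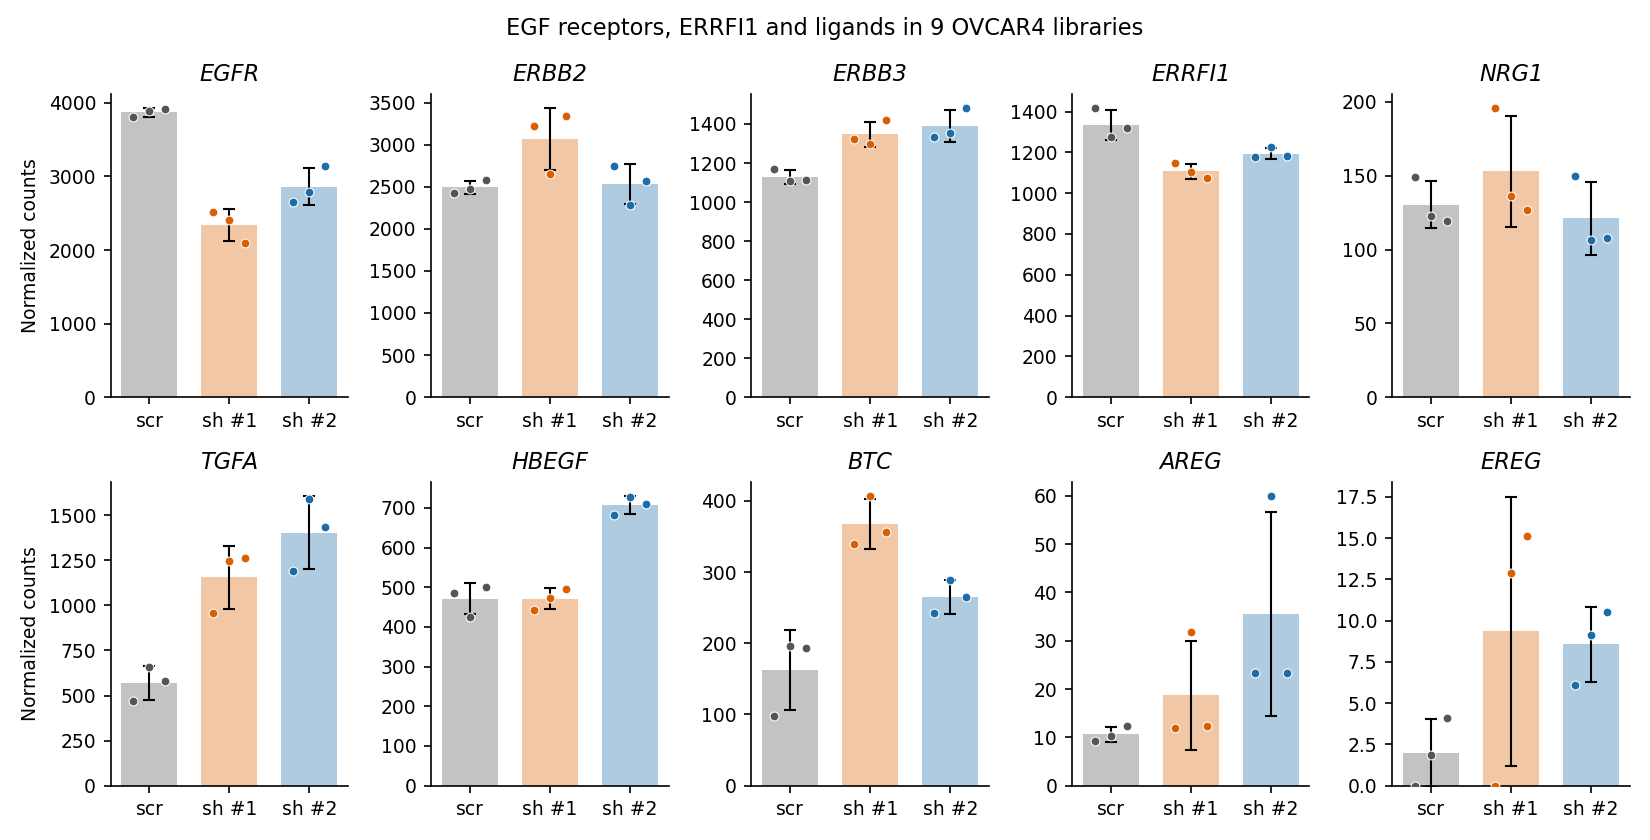
Normalized counts (linear axes from 0, a scale per gene) of the 10 members in scr control, shMPZL3 #1 and shMPZL3 #2 cells. Points are libraries (replicates 1 to 3 from left to right), bars are group means and whiskers are SD (n = 3); EGFR lies below its controls in all 6 knockdown libraries, and TGFA, BTC and ERBB3 lie above.

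EGFR, the receptor for most ligands measured here, had 3804, 3885 and 3922 normalized counts in the controls, 2517, 2408.5 and 2092 with shMPZL3 #1 and 2658, 2792 and 3138 with shMPZL3 #2. The 3 controls lay close together and all 6 knockdown libraries fell below them. The level was 1.49-fold lower in the grouped comparison (log2 fold change -0.57, SE 0.11, adjusted p = 0.00593, edgeR). The exact permutation p (two-sided) was 0.0119, the smallest that 6 against 3 libraries can give. Permutation p-values here and below are not adjusted for the number of genes, and 11% of all genes had all 6 knockdown libraries below all 3 controls. EGFR fell 1.65-fold with shMPZL3 #1 (log2 -0.73, SE 0.10, adjusted p = 6.18e-05) and 1.35-fold with shMPZL3 #2 (log2 -0.43, SE 0.10, adjusted p = 0.00697). The libraries of the 2 hairpins did not overlap, yet the difference of 0.29 (95% interval 0.08 to 0.50) missed the threshold, with edgeR adjusted p = 0.0578. An antisense gene, EGFR-AS1, shares 186 exonic bases with EGFR and had 67 counts in the 9 libraries against 26772 for EGFR.

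ERBB2, the partner receptor with no known ligand, had 2428, 2472 and 2578 normalized counts in the controls, 3217, 2650 and 3339 with shMPZL3 #1 and 2743, 2277 and 2568 with shMPZL3 #2. The shMPZL3 #1 libraries were all above the controls, and the shMPZL3 #2 libraries ran across them. ERBB2 rose with shMPZL3 #1 (log2 0.30, SE 0.11, adjusted p = 0.0396), was not called with shMPZL3 #2 (log2 0.02, 95% interval -0.20 to 0.25, adjusted p = 0.918) or in the grouped comparison (log2 0.17, adjusted p = 0.367), all by edgeR. The shMPZL3 #1 call was lost without any 1 of the controls (adjusted p 0.133, 0.119 and 0.0861) and when replicate 1 (adjusted p = 0.0753) or 3 (log2 0.24, adjusted p = 0.149) of shMPZL3 #1 was left out. The shRNAs differed by -0.28 (95% interval -0.50 to -0.05, edgeR adjusted p = 0.0865), which is not a call. ERBB2 shares 571 exonic bases with MIEN1 and 194 with PGAP3 on the opposite strand, with 4467 and 2766 counts against 24405 for ERBB2, and as the libraries were non-directional the reads there cannot be told apart.

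ERBB3, the neuregulin receptor with weak kinase activity, had 1170, 1106 and 1112 normalized counts in the controls, 1324, 1298 and 1420 with shMPZL3 #1 and 1333, 1352 and 1482 with shMPZL3 #2. All 6 knockdown libraries were above all 3 controls, by a small margin. ERBB3 rose 1.21-fold in the grouped comparison (log2 0.28, SE 0.087, adjusted p = 0.0451, edgeR; exact permutation p = 0.0119). It passed with shMPZL3 #1 (log2 0.25, adjusted p = 0.0488) and with shMPZL3 #2 (log2 0.30, adjusted p = 0.0411) by edgeR, each just inside the threshold. Leaving out any single library other than shMPZL3 #1 replicate 2 ended the grouped call, the adjusted p over the 17 alternatives running from 0.0196 to 0.174 while the log2 fold change stayed between 0.26 and 0.31.

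TGFA, a ligand of EGFR, had the smallest adjusted p of the 10 members in the grouped comparison. It had 472, 656.5 and 583 normalized counts in the controls, 956, 1248 and 1262 with shMPZL3 #1 and 1188.5, 1588 and 1433 with shMPZL3 #2. Every knockdown library exceeded every control, and the 2 hairpin groups overlapped. The level was 2.24-fold higher in the grouped comparison (log2 1.16, SE 0.16, adjusted p = 0.00068, edgeR; exact permutation p = 0.0119), 2.02-fold higher with shMPZL3 #1 (adjusted p = 8.23e-05) and 2.45-fold higher with shMPZL3 #2 (adjusted p = 1.66e-05). TGFA was called in all 17 alternatives of each of these comparisons. The difference between the hairpins was 0.28 (95% interval -0.01 to 0.57, edgeR adjusted p = 0.191).

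BTC, betacellulin, a ligand of EGFR and ERBB4, had 98.4, 196 and 194 normalized counts in the controls, 340, 406 and 357 with shMPZL3 #1 and 242, 289 and 265 with shMPZL3 #2. The 3 groups did not overlap, and control replicate 1 lay well below the other 2 controls. BTC was 1.93-fold higher in the grouped comparison (log2 0.95, SE 0.23, adjusted p = 0.0154, edgeR; exact permutation p = 0.0119), 2.24-fold higher with shMPZL3 #1 (adjusted p = 0.000398) and 1.62-fold higher with shMPZL3 #2 (adjusted p = 0.0286). Without control replicate 1 the grouped log2 fold change was 0.69 (adjusted p = 0.0892) and that of shMPZL3 #2 was 0.43 (adjusted p = 0.124), neither a call. The shMPZL3 #2 call was also lost without shMPZL3 #2 replicate 2 (log2 0.63, adjusted p = 0.0580) or replicate 3 (log2 0.71, adjusted p = 0.0730), whereas shMPZL3 #1 was called in all 17 alternatives. The hairpins differed by -0.47 (95% interval -0.88 to -0.06, edgeR adjusted p = 0.114), which was not called.

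HBEGF, heparin-binding EGF, a ligand of EGFR and ERBB4, had 485, 426 and 502 normalized counts in the controls, 444, 474 and 496 with shMPZL3 #1 and 682, 726 and 711 with shMPZL3 #2. The shMPZL3 #1 libraries lay within the control range and the shMPZL3 #2 libraries lay above all the others. HBEGF rose with shMPZL3 #2 (log2 0.59, SE 0.11, adjusted p = 0.00205, edgeR). The estimate with shMPZL3 #1 was 0.00 (95% interval -0.24 to 0.25, edgeR adjusted p = 0.990). The direct test of shMPZL3 #2 against shMPZL3 #1 called the difference (log2 0.58, SE 0.11, adjusted p = 0.00232, edgeR), and it was called in all 16 alternatives. The grouped value, 0.32 (adjusted p = 0.220), averages over groups that differ.

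AREG, amphiregulin, was a low transcript with raw counts of 7, 11 and 9 in the controls, 13, 32 and 13 with shMPZL3 #1 and 23, 59 and 31 with shMPZL3 #2. Normalized counts averaged 10.7 ± 1.56, 18.7 ± 11.4 and 35.5 ± 21.1 (SD, n = 3), and replicate 2 was far above the other 2 in both knockdown groups. The AREG controls alone would not have met the low-count filter, so its place among the tested genes rests on knockdown libraries. AREG rose 3.28-fold with shMPZL3 #2 (log2 1.71, 95% interval 0.58 to 2.84, adjusted p = 0.0398, edgeR). That call was lost without any 1 of the controls (adjusted p 0.125, 0.116 and 0.0793) and without shMPZL3 #2 replicate 2 (log2 1.12, adjusted p = 0.190). The grouped log2 fold change was 1.33 (95% interval 0.16 to 2.50, adjusted p = 0.111) and that of shMPZL3 #1 was 0.79 (adjusted p = 0.300), neither called by edgeR.

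EREG, epiregulin, had raw counts of 0, 2 and 3 in the controls, 0, 13 and 16 with shMPZL3 #1 and 6, 9 and 14 with shMPZL3 #2. The shMPZL3 #2 libraries were above the controls, and shMPZL3 #1 spanned 0 to the highest value. With 63 counts in all 9 libraries the fit gave a grouped log2 fold change of 2.11 with a 95% interval of 0.003 to 4.22 (edgeR adjusted p = 0.158), which was not called. The value with shMPZL3 #1 (log2 2.16, edgeR adjusted p = 0.128) was not called either, but was in 1 of 15 alternatives. NRG1, neuregulin 1, the ERBB3 ligand, had 149, 123 and 120 normalized counts in the controls, 196, 136 and 127 with shMPZL3 #1 and 150, 107 and 108 with shMPZL3 #2. All 3 groups overlapped, with replicate 1 highest in each, and NRG1 passed no comparison (grouped log2 0.07, 95% interval -0.38 to 0.52, edgeR adjusted p = 0.848).

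ERRFI1, the inhibitor of active ErbB kinases, had 1417, 1273 and 1317 normalized counts in the controls, 1146, 1103 and 1073 with shMPZL3 #1 and 1175, 1224 and 1180 with shMPZL3 #2. All 6 knockdown libraries lay below all 3 controls. The grouped log2 fold change was -0.22 (95% interval -0.40 to -0.03), with exact permutation p = 0.0119 but edgeR adjusted p = 0.104, so it was not called. ERRFI1 fell with shMPZL3 #1 (log2 -0.27, SE 0.093, adjusted p = 0.0346, edgeR), a call kept in 7 of 17 alternatives, and had -0.16 with shMPZL3 #2 (adjusted p = 0.262). An antisense gene, AL034417.4, shares 155 of its exonic bases and had 174 counts against 10808.

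**Figure D3:**
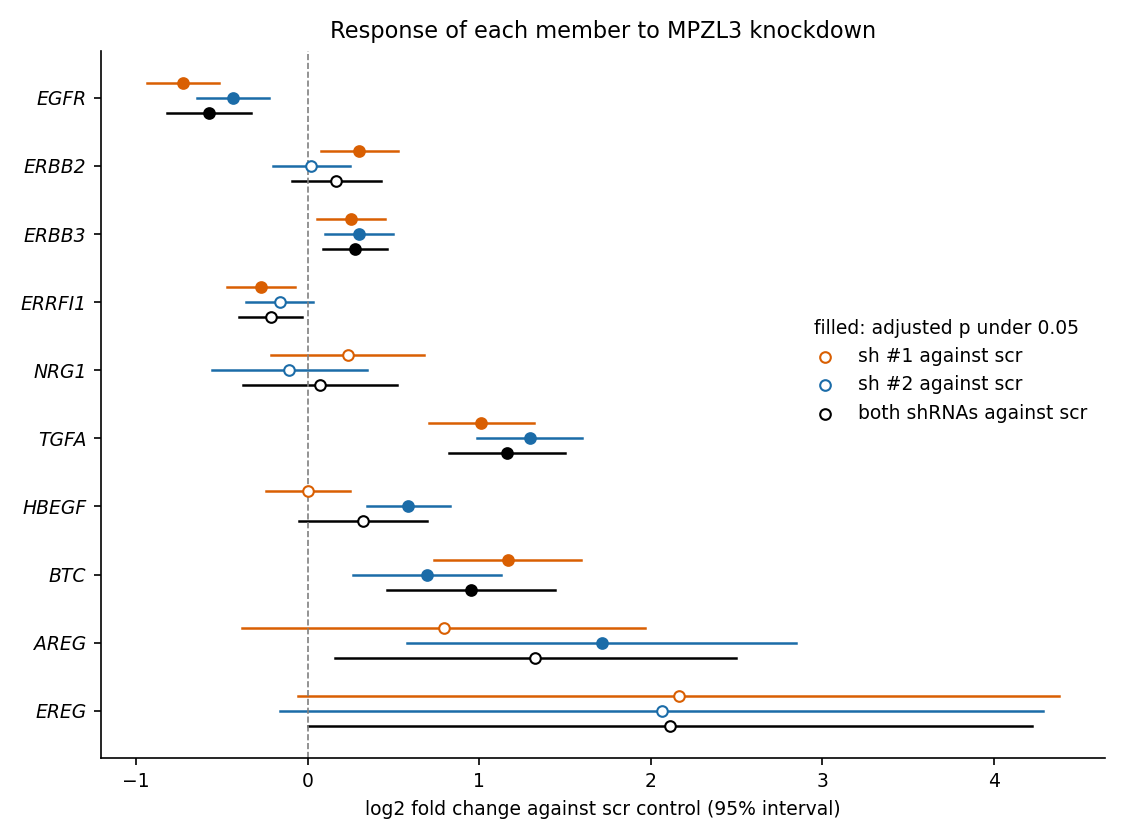
Log2 fold change against scr control (linear axis of log2 values) of each member for shMPZL3 #1, shMPZL3 #2 and both shRNAs grouped, with 95% intervals; filled points have adjusted p under 0.05 (edgeR). EGFR lies below 0 and TGFA and BTC above it in all 3 comparisons, HBEGF separates the shRNAs, and the intervals of AREG and EREG are the widest.

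The counts called in this and the following lists stand beside 9.36% of all genes called higher and 6.4% lower in the grouped comparison. Those shares were 16.8% and 15.3% with shMPZL3 #1, and 9.36% and 5.8% with shMPZL3 #2. Removal of single libraries also moved the grouped calls over all genes, to 453 to 1737 higher and 172 to 1450 lower. The rest of the family was measured with 6 further genes, of which 3 passed the low-count filter. ERBB4, the remaining receptor and a receptor for BTC, HBEGF and neuregulins, fell in the grouped comparison (log2 -0.89, SE 0.13, adjusted p = 0.00132, edgeR), from 1303.5 ± 76.8 normalized counts in the controls to 788 ± 71.8 with shMPZL3 #1 and 617 ± 95.6 with shMPZL3 #2. It was lower with each shRNA too, and the list gave 1 gene lower in each comparison with the controls under every removal of a library. EGF itself had 16.6 ± 7.82 normalized counts in the controls and was not called (log2 0.80, adjusted p = 0.159), nor was NRG4 (log2 0.08, adjusted p = 0.867, edgeR). NRG3 had 0 counts in all libraries, and EPGN and NRG2 reached at most 6 and 17 counts.

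Of 5 genes of ligand shedding, 1 was higher and 0 were lower in the grouped comparison, with a list median of 0.33 against 0.02 over all genes. The one called was RHBDF2, an iRhom that carries ADAM17 to the surface (log2 0.34, SE 0.10, adjusted p = 0.0386, edgeR). The sheddase ADAM17 had a log2 fold change of -0.11 (adjusted p = 0.544) and ADAM10 one of -0.28 (adjusted p = 0.148, edgeR). ADAM10 had 3919 ± 357 normalized counts in the controls, 3522 ± 456 with shMPZL3 #1 and 2937 ± 386 with shMPZL3 #2. Each shRNA taken alone gave 3 higher and 0 lower with shMPZL3 #1, and 0 higher and 1 lower with shMPZL3 #2. The 3 with shMPZL3 #1 were RHBDF2, the related iRhom RHBDF1 (log2 0.64, adjusted p = 0.000596) and TIMP3 (log2 0.82, adjusted p = 5.19e-05, edgeR), the last an inhibitor of metalloproteases including ADAM17; RHBDF1 and TIMP3 were named after their values were seen. Leaving out single libraries gave 0 to 1 higher and 0 to 1 lower in the grouped comparison, with 0 higher without any 1 of the controls. At an unadjusted p under 0.05 that comparison had 1 higher and 1 lower, with 1 and 0 by DESeq2.

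Of 22 adaptors and kinases of the RAS-ERK and PI3K-AKT cascades, 0 were higher and 3 lower in the grouped comparison by edgeR, and the median was -0.06. At an unadjusted p under 0.05, 1 was higher and 4 lower, and DESeq2 called 0 and 3. PIK3CB, a catalytic subunit of PI3K (log2 -0.41, adjusted p = 0.0150), NRAS, a RAS GTPase (log2 -0.41, adjusted p = 0.0255), and PTPN11, the phosphatase SHP2 (log2 -0.32, adjusted p = 0.0384), fell by edgeR. Without scr control replicate 1 or 2, none of the 22 was called lower in the grouped comparison, the range over removed libraries being 0 to 4. Of 14 genes of receptor ubiquitination and endocytosis, 1 was higher and 0 lower, namely AP2A1, a subunit of the clathrin adaptor AP-2 (log2 0.45, adjusted p = 0.0165, edgeR), and the median was -0.04. There an unadjusted p under 0.05 gave 3 higher and 1 lower, and DESeq2 called 2 and 1. Removing single libraries gave 0 to 3 higher, with 0 without any 1 of the controls.

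Of 10 ERK target genes, 9 were tested, 3 were higher and 0 lower in the grouped comparison, and the median was 0.45. DESeq2 called 3 and 1, as did an unadjusted p under 0.05 in edgeR. Those called by edgeR were PHLDA1, a pleckstrin-domain protein (log2 1.33, SE 0.28, adjusted p = 0.00891), ETV5, an ETS transcription factor (log2 1.13, SE 0.34, adjusted p = 0.0378), and SPRY2, a Sprouty inhibitor of receptor signaling (log2 0.85, SE 0.24, adjusted p = 0.0325), by edgeR. The 2 hairpins gave different counts, with 2 higher and 1 lower for shMPZL3 #1 and 5 higher and 0 lower for shMPZL3 #2. Tested directly, shMPZL3 #2 exceeded shMPZL3 #1 for 5 of the 9 and was below it for 1. CCND1, cyclin D1, named after its values were seen, was among these 5 (log2 0.80, SE 0.092, edgeR), but its mean was below the controls with both shRNAs. It had 6414 ± 71.4 normalized counts in the controls, 3148 ± 273 with shMPZL3 #1 and 5484 ± 77.8 with shMPZL3 #2. Its grouped log2 fold change was -0.57 (edgeR adjusted p = 0.0694), which was not called. As the only tested ERK target with a negative grouped value, CCND1 was the 1 lower at an unadjusted p under 0.05 in edgeR. It was also the 1 lower with shMPZL3 #1. The study reported a decrease of this transcript after knockdown in OVCAR4 cells by semi-quantitative RT-PCR. Without any 1 of the controls, 1 ERK target gene was called higher in the grouped comparison.

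Of 12 other negative feedback genes, 11 were tested, 2 rose and 2 fell in the grouped comparison, and the median was 0.07. SPRED3, a Sprouty-related inhibitor (log2 1.14, adjusted p = 0.0279), and SPRY2 rose, whereas LRIG3 (log2 -0.65, adjusted p = 0.00822) and LRIG1 (log2 -0.44, adjusted p = 0.0453), leucine-rich transmembrane proteins of which LRIG1 restrains ErbB receptors, fell by edgeR. Over the removals of single libraries, 0 to 2 were called higher and 1 to 2 lower. Of 20 other receptor tyrosine kinases, 16 were tested, 2 rose and 2 fell in the grouped comparison, and the median was 0.07. DDR1, a collagen receptor (log2 0.76, adjusted p = 0.00259), and MET, the hepatocyte growth factor receptor (log2 0.53, adjusted p = 0.0116), rose by edgeR. AXL, the GAS6 receptor (log2 -1.04, adjusted p = 0.0372), and FGFR2, a fibroblast growth factor receptor (log2 -0.53, adjusted p = 0.00175), fell by edgeR. AXL had at most 82 counts in any library. Removing single libraries gave 1 to 2 higher and 1 to 3 lower, with 1 lower without any 1 of the controls.

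**Figure D4:**
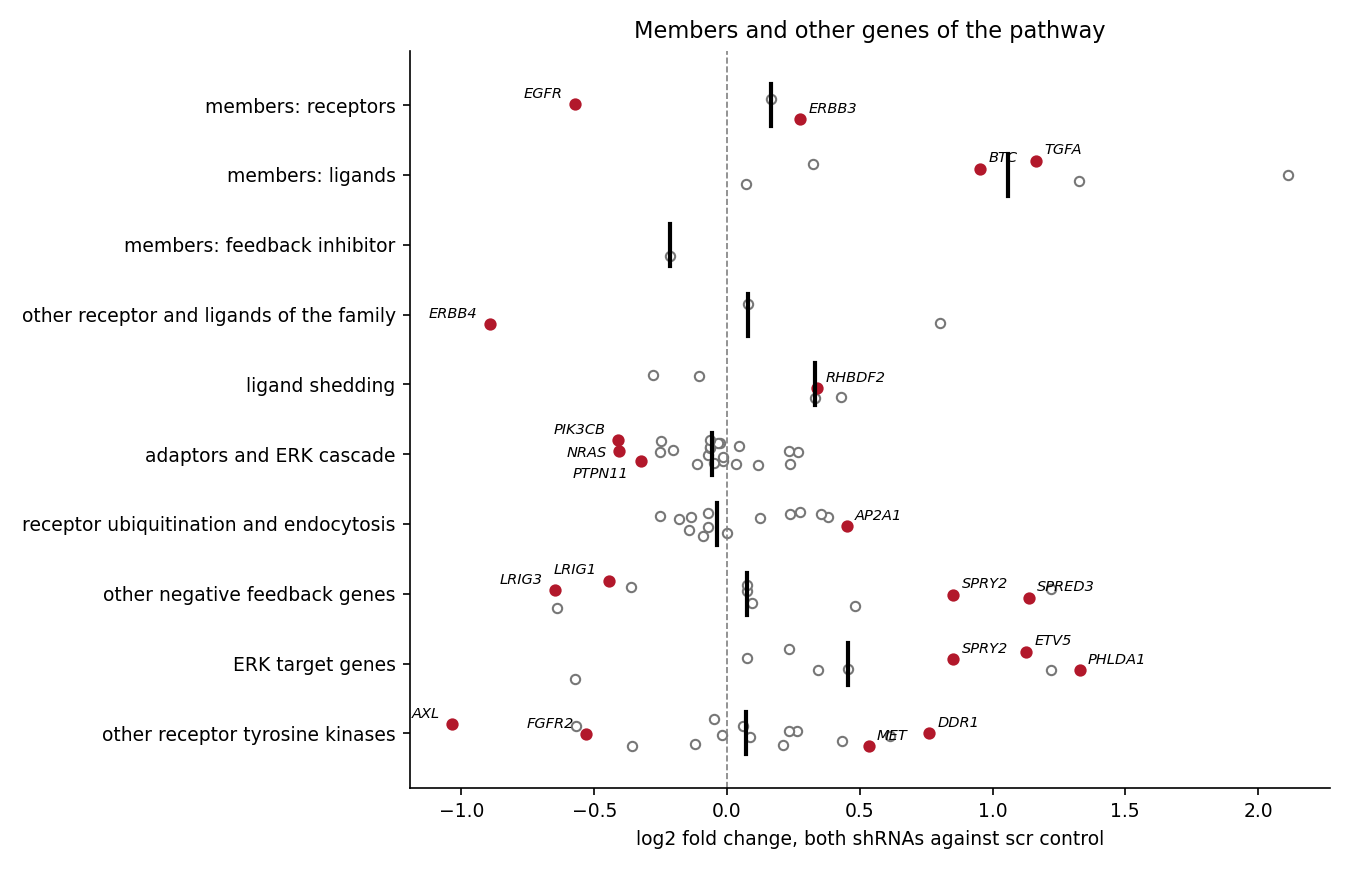
Log2 fold change of both shRNAs against scr control (horizontal axis, linear in log2) for each tested gene of the members and of 7 further lists, 1 point a gene. Filled points with names have adjusted p under 0.05 (edgeR), open points do not, and vertical ticks are list medians. The ligands have a median of 1.06, the ERK target genes 0.45, ligand shedding 0.33 and the receptors 0.17. Among the ligands, AREG and EREG needed knockdown libraries to pass the low-count filter, and both lie above the ligand median. The rest of the family has 0.08 and ERRFI1 alone -0.22, and the lists with over 10 tested genes have medians within 0.08 of 0.

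Genes whose profile over the 9 libraries was nearest to that of EGFR, among 11915 protein-coding genes, were CENPI, a centromere protein, SNRNP200, a spliceosome helicase, and PSMG2, a proteasome assembly chaperone. Their root-mean-square distances on standardized log2 values were 0.181, 0.186 and 0.193. For EREG, the ligand with the largest fitted fold change, the nearest profiles were ZNF460 (0.244), GLCCI1 (0.260) and FZD1 (0.364), a comparison that rests on at most 16 counts per library of EREG.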

How the data were processed

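Poly-A RNA from OVCAR4 cells was sequenced as non-directional libraries. The authors deposited raw counts per gene; the submitters' processing notes name HISAT2 2.0.5, featureCounts 1.5.0-p3 and hg38. The annotation release is not given in the sources used here; the lengths of all 58735 genes equal merged exon lengths of GENCODE 29, from which coordinates were taken. The deposited gene length column, in bases, was used only for TPM (counts per base scaled to the same sum in each library). Library totals were 15040102 to 27835841 counts.

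Counts were tested with edgeR 4.0.16 (R 4.3.3): filterByExpr over the 3 groups kept 16928 genes, holding 99.8% to 99.9% of each library's counts, then TMM normalization (factors 0.983 to 1.03), quasi-likelihood tests and Benjamini-Hochberg adjustment over all genes tested, with calls under 0.05. The grouped comparison fitted 6 knockdown against 3 control libraries; the shRNA comparisons used a 3-group fit. Standard errors are the absolute log2 fold change over the square root of F, intervals are 95%, and permutation tests are exact, two-sided, on log2 CPM with a prior count of 2 (smallest p 0.0119 for 6 against 3 libraries and 0.1 for 3 against 3). The fit was checked on simulated counts. Replicates of a group differed beyond sampling noise. Adjusted p-values measure only the spread between these libraries.

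The members, the gene lists and the tests were chosen with earlier results of these data known. Genes named from a list were those called in the grouped comparison with the largest absolute log2 fold change, up to 4 a list; genes of like pattern were the 3 nearest, among protein-coding genes averaging at least 1 in log2 CPM, to the receptor and the ligand with the largest absolute grouped fold change. Neighbouring genes were named where they overlap a member. Promoter sequences came from a RefSeq table (GRCh38.p14), in which 8 of the 10 members matched. Alternatives were DESeq2 1.42.0, other normalizations and filters, protein-coding genes only, a replicate block, the mean of the 2 shRNAs, and removal of each library in turn. Figures were drawn with matplotlib 3.10.9.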

Additional observations from a re-analysis of the deposited data

Results flagged for a closer look

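EREG in shMPZL3 #1 replicate 1, with 0 counts, stood apart from the other 5 knockdown libraries: its gap to the nearest of them on log2 CPM took 0.650 of the range of all 6, above Dixon's 95% critical value. Chance places about 1 in 20 groups of normal draws from 1 population past that value. That rate need not hold here, as the 6 libraries carried 2 hairpins and the prior count of 2 sets where 0 counts lie.

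HBEGF differed between the shRNAs, by 0.58 on the log2 scale (shMPZL3 #2 over shMPZL3 #1, SE 0.11, edgeR adjusted p = 0.00232), with all 3 shMPZL3 #2 libraries above all 3 of shMPZL3 #1. The MPZL3 level also differed between them, being higher with shMPZL3 #2 by 1.28 on the log2 scale, and its part in the HBEGF difference was not tested.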

How the results depend on the processing

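Of 660 member values under the alternatives, 592 kept their direction and side of the threshold, 46 lost a call, 10 gained one and 12 turned direction, none of these 12 being called. EGFR and TGFA kept their calls in all 17 alternatives of the grouped comparison and of each shRNA against the controls, and HBEGF kept its calls for shMPZL3 #2 and between the shRNAs. ERBB3 in the grouped comparison was called in 7 of 17.

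The number of members called lower with shMPZL3 #1 was 1 in place of 2 with upper-quartile normalization, without a filter on low counts and with at least 10 counts in every library. Between the shRNAs, DESeq2 called 2 members higher in place of 1. No label says that a replicate number marks a shared batch, and not every same-number pair passed a correlation of 0.1, so the numbers were not used as a pairing (correlations of deviations -0.0014 to 0.22 over 9 pairs, 3 of them over 0.1, and 5 of 9 libraries closest to their own number). Between the shRNAs, however, the same-number correlations were 0.14, 0.22 and 0.097, above the highest of any different-number pair (0.067), a hint from the data and not from the design. The replicate block called 3 members higher and 2 lower between the shRNAs in place of 1 and 0, adding EGFR (adjusted p = 0.0295), TGFA (0.0293), ERBB2 (0.0291) and BTC (0.0305, all edgeR), and turned EREG between the shRNAs to 0.19; in it the grouped ERBB3 value had adjusted p = 0.0565.

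Leaving out 1 library at a time gave, in the grouped comparison, 1 to 3 members higher (1 without scr control replicate 1). It gave 2 to 4 higher and 1 to 2 lower with shMPZL3 #1, 2 to 5 higher with shMPZL3 #2, and 1 to 2 higher and 0 to 1 lower between the shRNAs. Directions turned within the ranges of EREG between the shRNAs (-0.70 to 0.44), ERBB2 with shMPZL3 #2 (-0.056 to 0.088), HBEGF with shMPZL3 #1 (-0.069 to 0.066), NRG1 grouped (-0.039 to 0.17) and ERBB3 between the shRNAs (-0.012 to 0.085). The cause was not tested. Over all genes the grouped comparison called 1584 higher and 1083 lower, against 453 and 172 without scr control replicate 1. Counts limit AREG and EREG.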
